A study of Homo sapiens with 3 samples.

Results

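The genes described here are 45 genes that carry a cell through the G2 phase and mitosis: cyclins and their kinase, mitotic kinases, kinetochore and spindle checkpoint proteins, kinesin motors, spindle proteins and chromosome proteins. They were taken from a list of symbols chosen with earlier results of these data known. Every probe set whose platform annotation named exactly 1 of these genes was read on all 3 arrays. This gave 89 of the 41091 probe sets that name 1 gene. RNA came from khES3, an established line of human embryonic stem cells in the undifferentiated state, after 5 hours in medium lacking lysine, in medium lacking leucine or in complete medium. The cells had been grown in stem cell medium until near confluence. Lysine and leucine are essential amino acids, which human cells must take up. Each condition had 1 array, so no difference below has a replicate check or a p-value, and a single line was studied. The labels do not say whether the 3 cultures were grown in parallel.

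Cells that divide switch these genes on late in the cycle. Cyclin B and CDK1 form the kinase that starts mitosis, kinetochores join chromosomes to spindle microtubules, the spindle checkpoint holds the cell until every chromosome is attached, and the anaphase-promoting complex then ends mitosis by marking cyclin B and securin for destruction. Embryonic stem cells cycle fast with a short G1 phase, and many of these mRNAs are abundant in them. In most cell types the genes share promoter elements: CCAAT boxes, which bind NF-Y, and the cell cycle genes homology region (CHR), which binds the DREAM and MuvB complexes. DREAM represses the genes in resting cells, while MuvB, with B-MYB and FOXM1, helps activate them in dividing ones.

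The promoter table used here, from RefSeq on GRCh38.p14, held 38 of the 45 members, with 48 windows that run from 250 bases before a gene start to 50 bases after it. Some genes have several starts, and some windows overlap. The CHR letters searched on both strands were TTTGAA, which reads TTCAAA on the opposite strand. A variant of the CHR, TTCGAA, was searched likewise. The third motif was the CCAAT box, which reads ATTGG on the opposite strand. CHR letters stood in a window of 30 of the 38 members (78.9%), against 17.3% of 15805 other protein-coding genes. A CCAAT box stood in 32 of 38 (84.2%), against 42.0% of the others. A single window held both in 26 of 38 members (68.4%), against 7.13% of the others. In 2 places, in CDCA8 and MKI67, a CHR match overlapped a CCAAT match. A match is a run of letters and not a site shown to be bound. The sequences below run from 140 bases before the start to 10 bases after it, 5′ to 3′, with the matches in capitals. They are shown because 4 of these genes (INCENP, PLK1, KIF20A and CENPA) had the lowest differences on the lysine-deprived array and because CDK1 and CCNB1 encode the kinase and the cyclin that start mitosis. All 6 are on the plus strand: PLK1 at chr16:23678749-23678898, CENPA at chr2:26785916-26786065, INCENP at chr11:62123871-62124020, CDK1 (its second listed start) at chr10:60778338-60778487, CCNB1 at chr5:69167010-69167159 and KIF20A at chr5:138178972-138179121.
PLK1: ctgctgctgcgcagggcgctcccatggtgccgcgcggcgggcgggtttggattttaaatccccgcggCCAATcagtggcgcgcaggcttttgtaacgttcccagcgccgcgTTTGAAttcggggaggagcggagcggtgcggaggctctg
CENPA: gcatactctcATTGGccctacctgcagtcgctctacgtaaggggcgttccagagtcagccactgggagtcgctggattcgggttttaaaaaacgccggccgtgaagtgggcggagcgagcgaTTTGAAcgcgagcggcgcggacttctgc
INCENP: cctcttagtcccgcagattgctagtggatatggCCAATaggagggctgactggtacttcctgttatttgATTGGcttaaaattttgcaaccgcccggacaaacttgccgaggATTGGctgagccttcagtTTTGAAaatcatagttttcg
CDK1: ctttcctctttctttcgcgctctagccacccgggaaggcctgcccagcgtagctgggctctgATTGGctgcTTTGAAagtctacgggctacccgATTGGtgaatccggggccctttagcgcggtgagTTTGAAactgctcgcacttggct
CCNB1: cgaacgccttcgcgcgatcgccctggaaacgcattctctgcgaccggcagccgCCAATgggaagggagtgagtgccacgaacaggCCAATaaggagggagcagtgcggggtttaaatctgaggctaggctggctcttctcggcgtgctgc
KIF20A: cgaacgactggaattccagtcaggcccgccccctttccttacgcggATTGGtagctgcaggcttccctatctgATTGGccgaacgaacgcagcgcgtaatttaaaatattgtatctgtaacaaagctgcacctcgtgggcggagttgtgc

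In these stretches the CHR match began 29 bases before the start in PLK1, 18 before in CENPA, 10 before in INCENP, and 69 and 13 before in CDK1. CCNB1 and KIF20A held CCAAT boxes but no match to the CHR letters searched in their windows. Other variants of the CHR were not searched, and the part of either motif in the differences was not tested. The 26 members with both motifs had a median log2 difference of -0.41 for lysine-deprived over complete, against -0.39 for the 12 without both. Among other genes, the 635 measured ones with both motifs had a median of -0.01 and the 9362 without both -0.00. For leucine-deprived over complete the medians were -0.27 and -0.08 in members with and without both motifs.

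**Figure D1:**
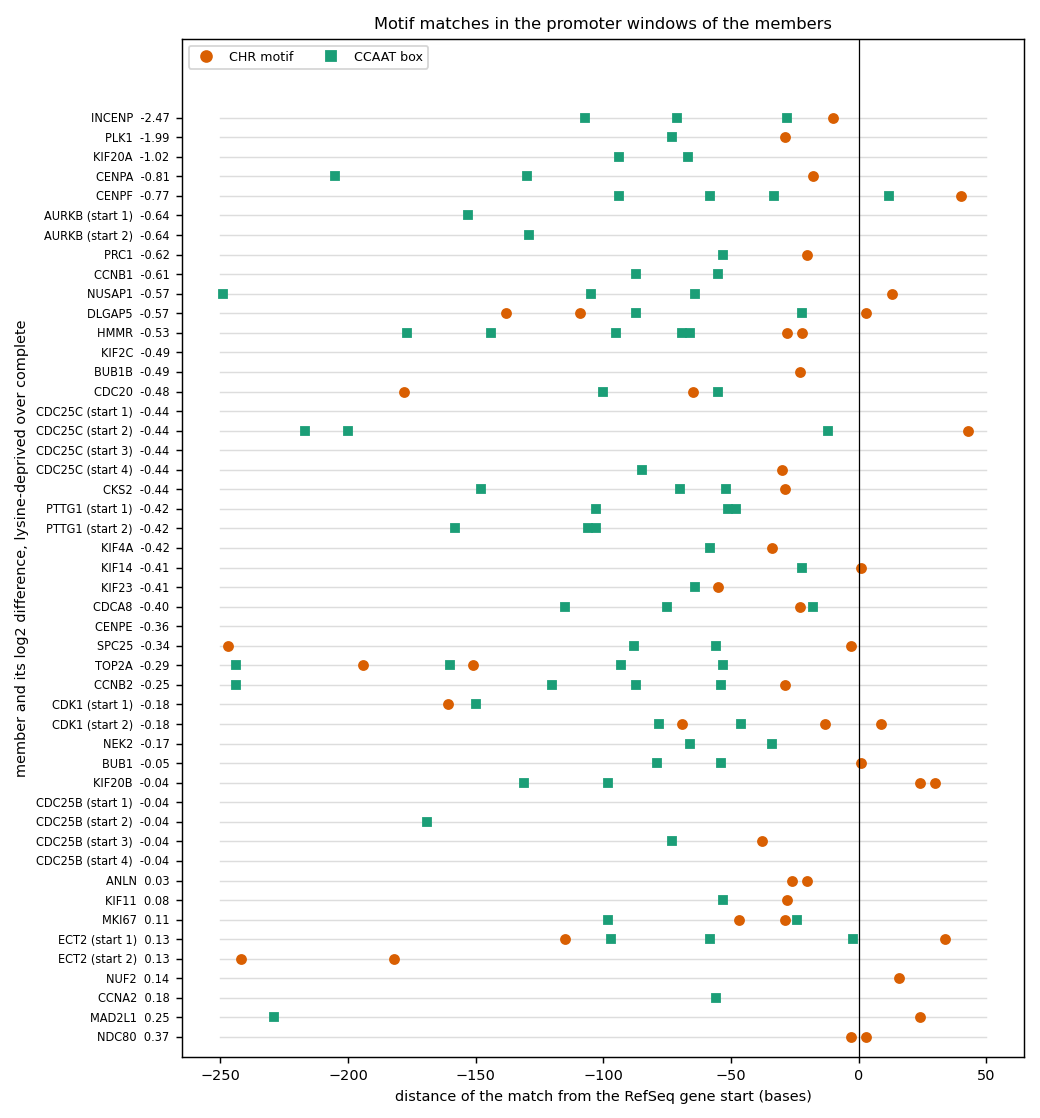
Motif matches in the 48 promoter windows of 38 members, one line per window, by distance in bases from the RefSeq gene start (x axis; 0 is the start). Circles mark CHR letters and squares CCAAT boxes; members run from the lowest (top) to the highest log2 difference of lysine-deprived over complete, which stands beside each name, and 26 of 47 CHR matches and 58 of 77 CCAAT matches lie within 120 bases before the start.

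Signals are the authors' linear MAS5 intensities. Each array had a floor, the 40th percentile of its probe sets, at 62.4 on the lysine-deprived, 56.7 on the leucine-deprived and 54.6 on the complete-medium array, and values under it were raised to it before log2 was taken. A probe set was kept where its mean log2 level was at or above the median of all, which left 77 of the 89, with at least 1 for each of the 45 members, and a gene took its brightest kept probe set. The same steps gave 12961 genes in all. The error these arrays hold is the pooled SD of a difference between probe sets of 1 gene, over 5981 genes: 0.57 for lysine-deprived over complete, 0.49 for leucine-deprived over complete and 0.58 for lysine- over leucine-deprived. Differences between cultures are not in it. Of 10 markers of undifferentiated stem cells, 9 could be read and all 9 were above the floor on every array. Of 4 mesoderm markers 1 was above the floor on every array, while HAND2 and MIXL1 were at the floor on all 3. The summed signal of the mesoderm markers was 626 on the lysine-deprived, 297 on the leucine-deprived and 209 on the complete-medium array. On the same 3 arrays the fibroblast and feeder cell markers summed to 29595, 25598 and 28183 (4 of 8 on the array above every floor), those of trophoblast to 358, 578 and 316 (2 of 5), of endoderm to 629, 425 and 679 (2 of 5) and of neural cells to 565, 642 and 680 (1 of 3). The part of other cells in the results was not tested.

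After lysine removal most G2/M genes were lower. The median log2 difference of lysine-deprived over complete was -0.40 over the 45 members, against 0.00 over all genes and -0.03 over the 6481 brighter genes, those with a level not under the median of all, where 42 of the members lie. Of the members 36 (80.0%) lay below 0, against 49.5% of all genes and 53.3% of the brighter ones. At least 2-fold lower and above the floor on both arrays were 2 of 44 members, PLK1 and KIF20A, against a background of 1.95% of 12227 genes. INCENP was also past 2-fold, as a bound, against 28.5% of 716 genes above the floor on 1 of these arrays. Among the brighter genes 1 of 42 members, KIF20A, was 2-fold lower (background 0.432%). No member was 2-fold higher (background 4.22%). At the lower threshold of 1.5-fold 8 of 44 members were lower (background 8.69%), or 7 of 42 among the brighter genes (background 4.97%), and none was higher (background 13.2%). Lower by more than the SD between probe sets were 11 members (24.4%), against 11.3% of all genes and 5.57% of the brighter ones, and no member was higher by more than it. Because whole cultures were measured, fewer cells in G2 and mitosis and less of each mRNA per cell cannot be told apart. A control for shortened RNA, the 3′ to 5′ signal ratio of ACTB, was 11.2 on the lysine-deprived and 5.44 on the complete-medium array. The part of this in the members' median was not tested.

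**Figure D2:**
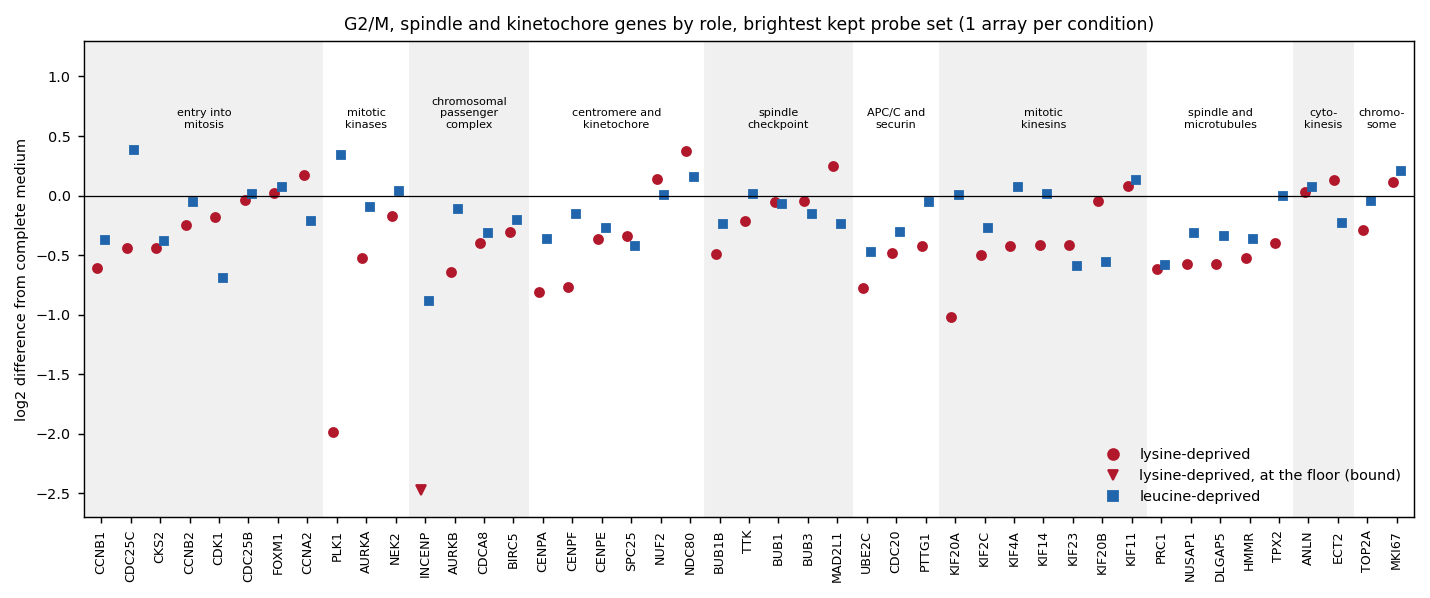
Log2 difference from complete medium (y axis) of the 45 members, grouped by role, on the lysine-deprived array (circles, with a triangle for INCENP at the floor) and the leucine-deprived array (squares), brightest kept probe set, 1 array per condition. Lysine-deprived points lie below 0 for 36 members and leucine-deprived points for 31; PLK1, at -1.99 and 0.34, has the widest gap between them.

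The 8 genes for entry into mitosis had a median of -0.21 after lysine and -0.14 after leucine removal on their brightest probe sets. They ran from -0.61 to 0.18 and from -0.69 to 0.38. CCNB1, the mitotic cyclin B1, had a signal of 7075 on the lysine-deprived, 8320 on the leucine-deprived and 10790 on the complete-medium array. Both deprived arrays were below complete medium, the lysine-deprived one by more (-0.61). CDK1, its kinase, had 6434 lysine-deprived, 4506 leucine-deprived and 7267 in complete medium on its brightest probe set, where the leucine-deprived array was lowest (-0.69). Its other 2 kept probe sets had the lysine-deprived array lowest, with 1775 lysine-deprived, 2327 leucine-deprived and 3743 in complete medium on the brighter of them and 1238, 1790 and 2448 on the dimmer. CCNA2, cyclin A2, had 4505 lysine-deprived, 3433 leucine-deprived and 3990 in complete medium. CCNB2, cyclin B2, had 5884, 6724 and 6993 on the same 3 arrays. CDC25C, a phosphatase that activates CDK1, had 541 lysine-deprived, 959 leucine-deprived and 735 in complete medium on its brightest probe set. There the array without leucine was highest (0.38). Its other kept probe set had 53.0, under the floor, then 148 and 147 on the same 3 arrays. That made a bound of -1.24 after lysine removal and a difference of 0.01 after leucine removal. FOXM1, the transcription factor of many G2/M genes, hardly differed, with 1379 lysine-deprived, 1429 leucine-deprived and 1358 in complete medium. CKS2, a small CDK-binding protein, was at -0.44 and -0.38 after lysine and leucine removal, and CDC25B, another CDK-activating phosphatase, at -0.04 and 0.02.

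Of the 3 mitotic kinase genes PLK1 had the largest difference. PLK1, which drives centrosome maturation and many later steps of mitosis, had a signal of 75.2 on the lysine-deprived, 377 on the leucine-deprived and 298 on the complete-medium array. It was 3.96-fold lower in the lysine-deprived than in the complete-medium culture (-1.99), and its lysine-deprived signal was close to the floor of 62.4. With the floor at the 60th percentile that signal was under it and the difference was a bound of -1.01, and with no floor and 32 added to each signal it was -1.62. After leucine removal it was on the other side of complete medium (0.34). PLK1 is read by 1 probe set, so no second reading exists. AURKA, the spindle pole kinase, had 3231 lysine-deprived, 4356 leucine-deprived and 4655 in complete medium (-0.53 and -0.10). Its other 2 kept probe sets were at -0.27 and -0.39 after lysine removal. NEK2, a centrosome kinase, was at -0.17 and 0.04 on its brighter probe set and at -0.87 and 0.23 on its dimmer one.

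The chromosomal passenger complex corrects faulty chromosome attachments and guides cytokinesis. All 4 of its genes lay below 0 on both deprived arrays by their brightest probe sets. The background was 49.5% of all genes after lysine and 48.3% after leucine removal. The medians of the 4 genes were -0.52 after lysine and -0.26 after leucine removal. INCENP, the scaffold of the complex, had a signal of 28.1 on the lysine-deprived array, under its floor, 187 on the leucine-deprived and 346 on the complete-medium array. It was therefore at least 5.54-fold lower after lysine removal (-2.47, and -1.23 with the floor at the 60th or -3.62 at the 20th percentile), and it differed by -0.88 after leucine removal, on 1 probe set. AURKB, the kinase of the complex, had 974 lysine-deprived, 1401 leucine-deprived and 1518 in complete medium (-0.64 and -0.12). Its dimmer probe set had 38.6, under the floor, then 134 and 250 on the same 3 arrays, a bound of -2.00 after lysine and a difference of -0.90 after leucine removal. BIRC5, which encodes survivin, had 3791 lysine-deprived, 4066 leucine-deprived and 4689 in complete medium, and its 4 probe sets ran from -0.90 to -0.14 after lysine removal. CDCA8, which encodes borealin, was at -0.40 and -0.32.

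Of 6 centromere and kinetochore genes 4 lay below 0 on each deprived array. This is not far from the share over all genes (49.5% after lysine and 48.3% after leucine removal). CENPA, the histone H3 variant that marks centromeres, had 519 lysine-deprived, 704 leucine-deprived and 909 in complete medium (-0.81 and -0.37). A further probe set names CENPA together with another gene and was not used. CENPF, a large kinetochore protein, had 2927 lysine-deprived, 4479 leucine-deprived and 4994 in complete medium (-0.77 and -0.16). CENPE, a kinetochore kinesin, was at -0.36 and -0.27. The NDC80 complex binds microtubules, and its genes lay on either side of 0: NDC80 was at 0.37 and 0.16, NUF2 at 0.14 and 0.01 and SPC25 at -0.34 and -0.42 after lysine and leucine removal.

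On their brightest probe sets the 5 spindle checkpoint genes had medians of -0.05 after lysine and -0.16 after leucine removal. MAD2L1, which inhibits the anaphase-promoting complex, had 8412 lysine-deprived, 6007 leucine-deprived and 7088 in complete medium on its brightest probe set. BUB1, a checkpoint kinase, had 2631, 2596 and 2732 on the same 3 arrays, and BUB3, its partner, 11493, 10623 and 11855. Most other kept probe sets of these genes were lower after lysine removal. Those of MAD2L1 were at -0.77 and -0.44 and that of BUB1 at -0.52. Those of BUB3 were at -0.38, -0.33, -0.19 and, on the dimmest, 0.68. By brightest probe set BUB1B, which encodes BUBR1, was lowest of the group after lysine removal (-0.49, and -0.24 after leucine removal). TTK, the kinase that starts the checkpoint signal, was at -0.21 and 0.02. Below complete medium on both deprived arrays were the genes for the exit from mitosis. UBE2C, the ubiquitin-conjugating enzyme of the anaphase-promoting complex, had 8462 lysine-deprived, 10432 leucine-deprived and 14509 in complete medium (-0.78 and -0.48). CDC20, which activates that complex, had 4812 lysine-deprived, 5425 leucine-deprived and 6714 in complete medium (-0.48 and -0.31). PTTG1, which encodes securin, was at -0.42 and -0.05.

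Of 7 mitotic kinesin genes 6 lay below 0 after lysine removal (background 49.5%), with a median of -0.41. After leucine removal 3 lay below 0, near the share over all genes (48.3%), with a median of 0.01. KIF20A, needed for cytokinesis, had 823 on the lysine-deprived array, 1673 on the leucine-deprived and 1666 on the complete-medium array. It was 2.02-fold lower after lysine removal and level with complete medium after leucine removal (0.01), on 1 probe set. KIF23, which encodes a subunit of centralspindlin, showed no such gap, with 1174 lysine-deprived, 1039 leucine-deprived and 1560 in complete medium (-0.41 and -0.59). KIF20B had 1227 lysine-deprived, 862 leucine-deprived and 1265 in complete medium, so the leucine-deprived array was the low one (-0.55). KIF2C, a microtubule depolymerase, was at -0.49 and -0.27 on its brighter probe set and -0.66 and 0.20 on its dimmer one. KIF14 was at -0.41 and 0.01 on its brighter and -0.02 and -0.06 on its dimmer probe set. The chromokinesin KIF4A was at -0.42 and 0.07, and KIF11, the motor that separates spindle poles, at 0.08 and 0.13.

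All 5 spindle and microtubule-binding genes lay below 0 on both deprived arrays (background 49.5% after lysine and 48.3% after leucine removal). Their medians were -0.57 after lysine and -0.34 after leucine removal. PRC1, which bundles midzone microtubules, had 2223 lysine-deprived, 2273 leucine-deprived and 3407 in complete medium, and so was as low without leucine as without lysine (-0.62 and -0.58). NUSAP1, a microtubule-bundling protein, was at -0.57 and -0.31, DLGAP5, which stabilises kinetochore fibres, at -0.57 and -0.34, HMMR, a spindle pole protein, at -0.53 and -0.36 and TPX2, the activator of AURKA at the spindle, at -0.40 and -0.00. The cytokinesis genes were level on their brightest probe sets: ANLN, which encodes anillin, had 3157 lysine-deprived, 3245 leucine-deprived and 3093 in complete medium. ECT2, which activates RhoA, had 3227, 2519 and 2952 on the same 3 arrays. TOP2A, the topoisomerase that untangles chromosomes, had 4726 lysine-deprived, 5591 leucine-deprived and 5764 in complete medium (-0.29 and -0.04). MKI67, the proliferation antigen Ki-67, had 606 lysine-deprived, 647 leucine-deprived and 560 in complete medium on its brightest probe set.

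**Figure D3:**
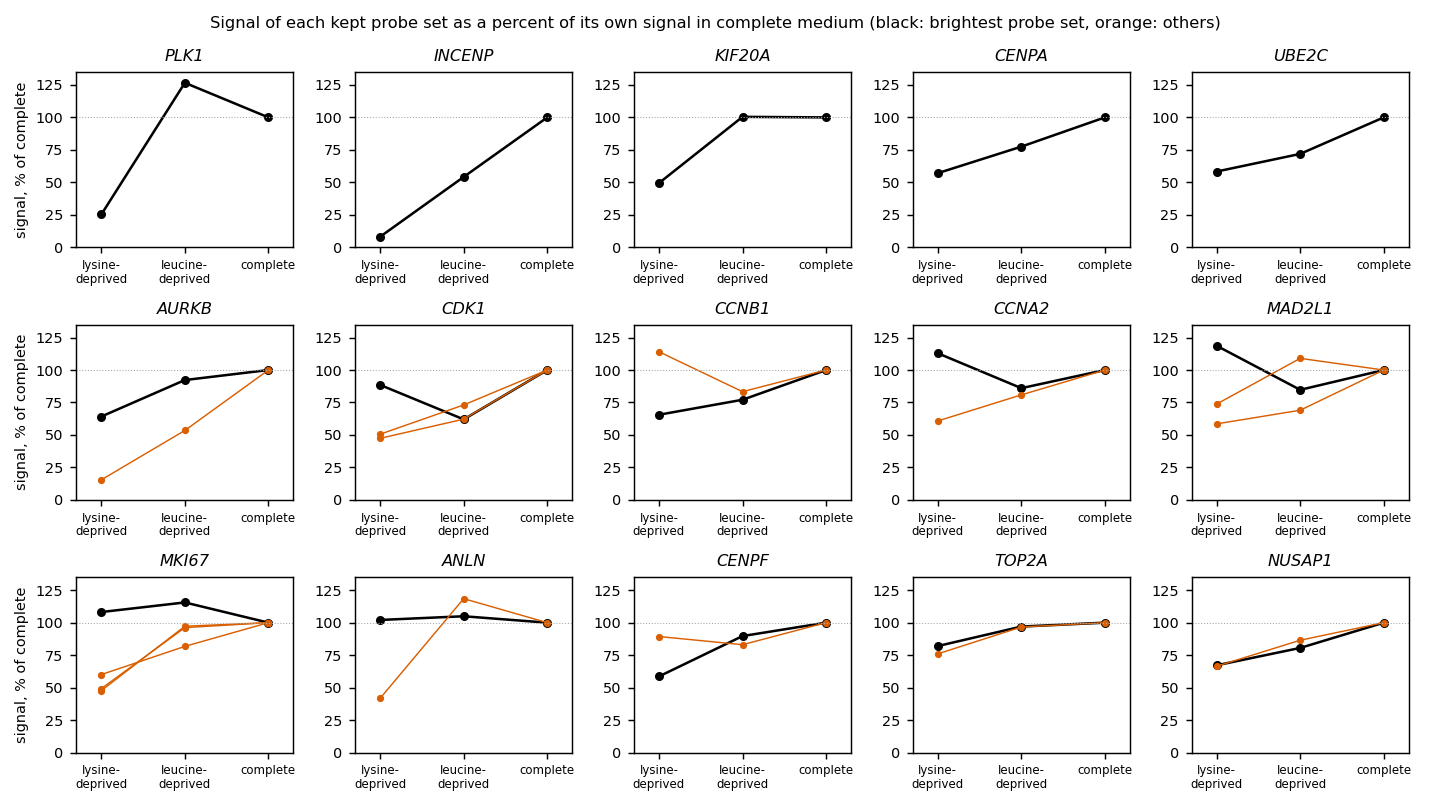
Signal of every kept probe set of 15 members as a percent of its own signal in complete medium (y axis, from 0), on the lysine-deprived, leucine-deprived and complete-medium arrays (x axis). Black lines are the brightest probe set and orange lines the others. The lines of AURKB, CDK1, CCNB1, CCNA2, MAD2L1, MKI67, ANLN and CENPF part on the lysine-deprived array, while those of TOP2A and NUSAP1 stay together.

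After leucine removal the G2/M genes lay nearer to complete medium. The median of leucine-deprived over complete was -0.16 over 45 members, against 0.01 over all genes and -0.00 over the brighter ones. Below 0 lay 31 members (68.9%), against 48.3% of all genes and 50.5% of the brighter ones. No member was 2-fold lower (background 1.43%, and 0.0617% among the brighter genes) or 2-fold higher (background 2.66%). At 1.5-fold 3 of 45 members were lower, INCENP, CDK1 and KIF23 (background 5.97%), or 2 of 42 among the brighter genes (background 1.67%), and none was higher (background 9.34%). Lower by more than the SD between probe sets were 5 members (11.1%), INCENP, CDK1, KIF23, PRC1 and KIF20B, against 10.1% of all genes and 3.13% of the brighter ones. Both comparisons use the complete-medium array, so that array's own error enters each.

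**Figure D4:**
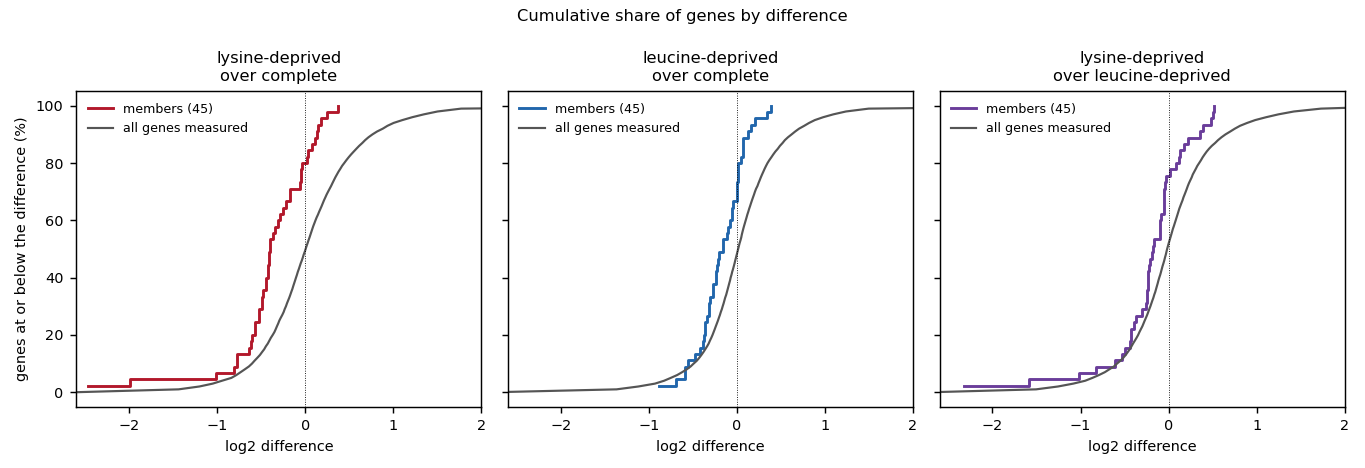
Cumulative percent of genes (y axis) at or below each log2 difference (x axis) for lysine-deprived over complete, leucine-deprived over complete and lysine- over leucine-deprived. Coloured steps are the 45 members and grey lines all 12961 genes measured; the member curve lies left of the grey line over most of its range, with medians of -0.40, -0.16 and -0.17 against 0.00, 0.01 and -0.02.

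Set against each other, the lysine-deprived array was below the leucine-deprived array for 34 of 45 members (75.6%). The background was 51.9% of all genes and 54.9% of the brighter ones. The median of lysine- over leucine-deprived was -0.17, against -0.02 over all genes and -0.03 over the brighter ones. Past 2-fold were PLK1 (-2.33) and KIF20A (-1.02), 2 of 44 members against a background of 1.93%, and INCENP as a bound of -1.58 (background 30.6% of 748 genes). Among the brighter genes this left 1 of 42 members, KIF20A (background 0.108%). No member was 2-fold higher (background 2.80%). At 1.5-fold 4 of 44 members were lower (background 7.75%), or 3 of 42 among the brighter genes (background 2.64%), and none was higher (background 9.26%). CDC25C (-0.83) and CENPF (-0.61) came next. On the other side of 0 lay the brightest probe sets of CDK1 (0.51), KIF20B (0.51), MAD2L1 (0.49) and CCNA2 (0.39). For 3 of these genes every other kept probe set was below 0 in the same comparison: CDK1 at -0.39 and -0.53, MAD2L1 at -0.24 and -0.56 and CCNA2 at -0.41, while KIF20B has 1 kept probe set. Of the 22 members with several kept probe sets 9 (40.9%) pointed in opposite directions here with a gap over 0.5, against 47.0% of all genes with several. Thus 5 members (11.1%) were lower by more than the SD between probe sets, against 10.1% of all genes and 2.68% of the brighter ones.

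Probe sets of the same member often disagreed on the lysine-deprived array, as did those of other genes. Of the 45 members 22 had several kept probe sets, and for these the brightest had a median of -0.30 for lysine-deprived over complete and the next-brightest -0.69. The next-brightest lay below the brightest in 17 of 22 members (77.3%), by a median of -0.40, against 53.4% of 5981 genes and a median of -0.04. Among the 3864 of these genes whose brightest probe set was at or above the median level, the share was 55.2% and the median -0.06. For leucine-deprived over complete the gap was absent at the median (-0.00, with the next-brightest lower in 12 of 22). The pooled SD between probe sets of the members was 0.49 after lysine and 0.24 after leucine removal. Over all genes it was 0.57 and 0.49, and over the 3864 brighter ones 0.50 and 0.41. In the lysine- over leucine-deprived comparison the SD of the members was 0.55. There the next-brightest lay below the brightest in 17 of 22 members, by a median of -0.50 against -0.04 over all genes.

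Of these 22 genes 14 (63.6%) had every kept probe set below 0 after lysine removal, against 22.3% of all genes with several. In 8 (36.4%) they pointed in opposite directions with a gap over 0.5: CCNA2, CCNB1, CCNB2, BUB3, MAD2L1, ECT2, ANLN and MKI67. The share over all genes with several was 44.0%, and 41.7% over the 3864 brighter ones. For MKI67 the brightest probe set was at 0.11 and the other 3 at -1.02, -1.07 and -0.74 after lysine removal, but at 0.21, -0.06, -0.04 and -0.29 after leucine removal. The ANLN probe sets were at 0.03 and -1.26, the dimmer one with 366 lysine-deprived, 1039 leucine-deprived and 877 in complete medium. The CDK1 probe sets were at -0.18, -1.08 and -0.98 after lysine removal, and at -0.69, -0.69 and -0.45 after leucine removal. Those of MAD2L1 were at 0.25, -0.77 and -0.44, and those of CCNA2 at 0.18 and -0.72. For CCNB1 the order was turned, with -0.61 on the brighter and 0.19 on the dimmer probe set, and for CENPF likewise (-0.77 and -0.16). ECT2 had 0.13 and -0.79, BUB1 -0.05 and -0.52, and CCNB2 -0.25 and 0.89. The widest BUB3 value, 0.68, came from a dim probe set that was under the floor on the leucine-deprived array. NUSAP1 (-0.57 and -0.59), HMMR (-0.53 and -0.56) and TOP2A (-0.29 and -0.40) gave close values on both probe sets after lysine removal.

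**Figure D5:**
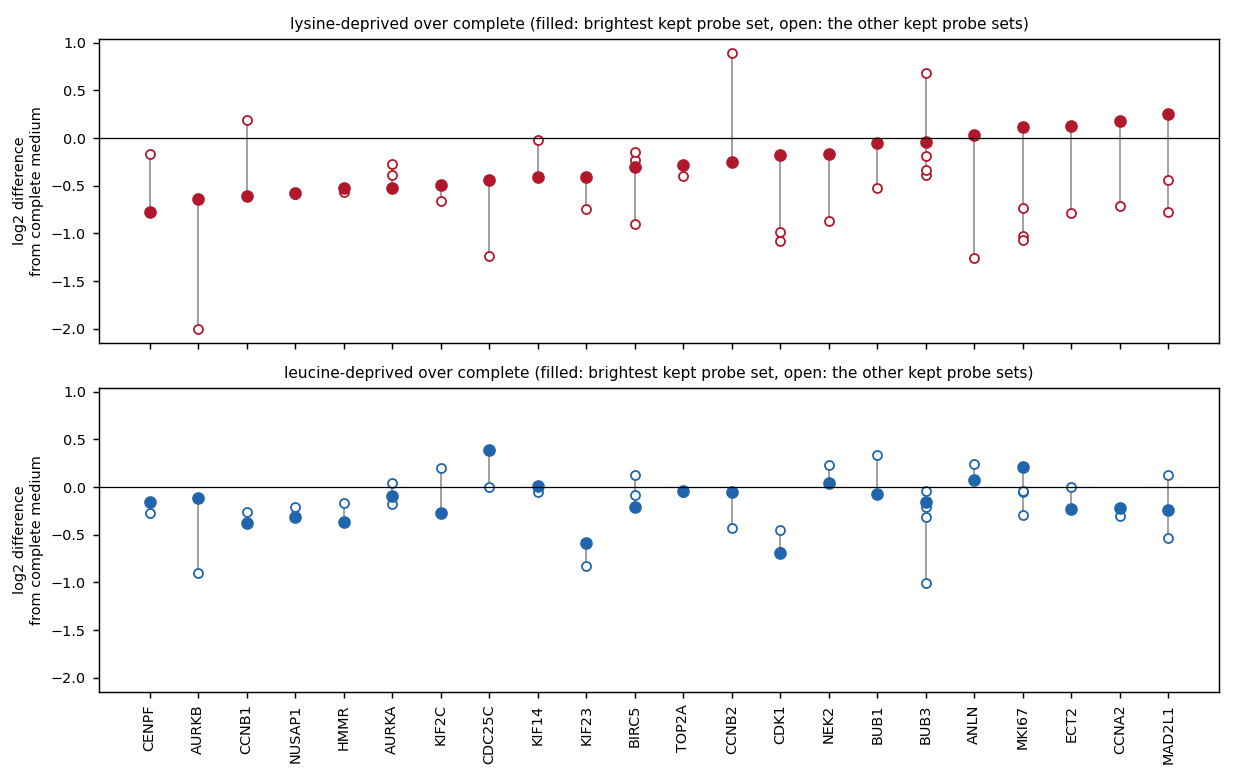
Log2 difference from complete medium (y axis) of every kept probe set of the 22 members with several, on the lysine-deprived array (upper panel) and the leucine-deprived array (lower panel); filled points are the brightest probe set and open points the others, joined by a line. The lines are longer in the upper panel, with a pooled SD of 0.49 against 0.24.

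Control probe sets for the ends of long-known transcripts differed between the same arrays. The ratio of the 3′ to the 5′ probe set of ACTB was 11.2 on the lysine-deprived, 7.55 on the leucine-deprived and 5.44 on the complete-medium array, and that of the 3′ to the middle probe set 3.77, 2.80 and 2.35. For GAPDH, a shorter transcript, the 3′ to 5′ ratio was 1.25, 1.23 and 1.08 and the 3′ to middle ratio 1.18, 1.01 and 1.02 on the same 3 arrays. Labelling started from the poly-A tail, so probe sets far from the 3′ end read less of a shortened RNA. The position of each probe set in its transcript was not used here. The part of this 3′ bias in the members' median was not tested, nor its part in PLK1, INCENP and KIF20A, which have 1 probe set each. Taking for every gene its kept probe set with the highest difference, a choice made after the values were seen, gave a median of -0.29 over the members for lysine-deprived over complete, against 0.16 over all genes, with 33 of 45 members below 0. This could change no value for the 23 members with 1 kept probe set, PLK1, INCENP and KIF20A among them. The probe set chosen need not be the one nearest the 3′ end, so this choice does not test for 3′ bias.

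Other mitotic genes, in 6 further lists of 106 genes that share no member with the 45, were lower by less. Of these 102 were measured, with medians of -0.15 after lysine and -0.09 after leucine removal, and 67 (65.7%, background 49.5%) and 65 of them (63.7%, background 48.3%) lay below 0. Past 2-fold lower after lysine removal were 3 of 102 (background 1.95%) and past 2-fold higher 2 (background 4.22%), both near or under the share over all genes. After leucine removal none was past 2-fold lower (background 1.43%) or higher (background 2.66%). Genes of spindle assembly and motors came nearest to the 45, with a median of -0.20 and 16 of 19 below 0 after lysine removal. CKAP2L, a spindle protein, had 166 lysine-deprived, 550 leucine-deprived and 428 in complete medium (-1.36 and 0.36), the same order of arrays as PLK1. FAM83D was at -0.98 and -0.56 and SPAG5, which encodes astrin, at -0.72 and -0.25. Genes of mitotic entry and exit control had medians of -0.27 and -0.07 over 19, with 12 and 13 below 0. The 3 with the largest mean size of both differences were LIN9 (-0.94 and -0.66), a subunit of the MuvB complex, LIN54 (-0.22 and 0.82), its DNA-binding subunit, and MASTL (0.52 and -0.46), the Greatwall kinase, so they do not share a direction. At 1.5-fold 3 of the 19 were lower after lysine removal (background 8.69%). A second LIN9 probe set was at 0.67 after lysine removal.

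The condensin, cohesin and separase list was level, with medians of 0.03 and -0.02 over 16 genes, although CDCA5, which encodes sororin, was 2-fold lower after lysine removal (-1.13, and -0.33 after leucine removal). In that list NCAPH, a condensin subunit, was at -0.59 and -0.65, and SMC2, a condensin ATPase, at -0.90 and -0.26 with another probe set at 0.21 after lysine removal. Inner centromere and CENP genes had medians of -0.04 and -0.10 over 18, with CENPC at -1.17 and -0.18, HASPIN, the histone H3 kinase, at -0.63 and -0.80, and CENPT at 1.38 after lysine removal and under the floor on the leucine-deprived array (4.16). The outer kinetochore and checkpoint list had medians of -0.18 and -0.06 over 16, with SKA1 at 1.15 and 0.29, TRIP13 at -0.53 and -0.57 and PMF1 at -0.15 and 0.63. Subunits and regulators of the anaphase-promoting complex had medians of -0.03 and -0.12 over 14, with FZR1, its second activator, at -0.63 and -0.61, ANAPC10 at 0.83 and 0.22 and CDC26 at -0.41 and -0.60. The ANAPC10 probe sets disagreed, with another at -0.94 after lysine removal, and so did those of FZR1, with another at 0.88.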

How the data were processed

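RNA of khES3 cells was measured on 1 array per condition (lysine-deprived, leucine-deprived, complete medium). Per the labels' protocols, 100 ng of total RNA was turned into biotin-labelled cRNA with a 3′ IVT kit. Deposited were linear signal intensity values per probe set, made by the authors with MAS5, per the submitters' processing notes. Its version is not given in the sources used here. Without the top and bottom 2% of probe sets, each array had the same mean of 500.1, a common scale on which differences in total mRNA cannot be seen.

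Gene names came from the platform annotation, which can be old. Each array's 40th percentile served as its floor, and log2 was taken. Probe sets with a mean log2 level at or above the median were kept, and a gene took its brightest one. Folds were counted where both signals exceeded the floor, and given as bounds where 1 did. With 1 array per group no test was possible, and lists are described beside all genes measured. Per-array values are given for 14 members chosen by name, the 5 members with the largest difference in each comparison and members whose kept probe sets point in opposite directions with a gap over 0.5, which made 26, and 3 genes are named per wider list. The members and lists were chosen with earlier results of these data known. Alternatives were other normalizations (median centring, quantile, cyclic loess), floors, level filters, probe set choices and fold thresholds. The calculations were tested on simulated data. No per-sample columns were left unused. Python 3.11.15, numpy 2.4.6, pandas 2.3.3, matplotlib 3.10.9, R 4.3.3 and limma 3.58.1 were used.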

Additional observations from a re-analysis of the deposited data

How the results depend on the processing

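The members' median kept its negative sign in all 3 comparisons under all 12 alternatives that give a median. It ran from -0.69 to -0.29 for lysine-deprived over complete (-0.40 as reported), from -0.29 to -0.04 for leucine-deprived over complete (-0.16) and from -0.40 to -0.09 for lysine- over leucine-deprived (-0.17). Centring each array on its median moved the median of all genes by -0.25, -0.13 and -0.12, to -0.24, -0.12 and -0.13, and gave -0.65, -0.29 and -0.29 for the members, with 5, 1 and 2 members 2-fold lower. The next-brightest probe set, over 22 members, gave -0.69 for lysine-deprived over complete and -0.40 for lysine- over leucine-deprived, with 1 member 2-fold higher in the last. The probe set with the highest difference, chosen after seeing the data, gave -0.29, -0.044 and -0.085, with 1 member 2-fold higher in the last, against 0.16, 0.13 and 0.13 over all genes. Of the 2 members 2-fold lower after lysine removal, 1 was left in some settings, and not always the same one. It was PLK1 with cyclic loess, and KIF20A with the floor at the 60th percentile or the level filter at the 70th. Likewise 1 of 2 was left for lysine- over leucine-deprived. This was PLK1 with cyclic loess or quantile normalization, and KIF20A with that floor or that filter. At 1.5-fold 8, 3 and 4 members were lower in the 3 comparisons (background 8.69%, 5.97% and 7.75%), and at 3-fold 1, 0 and 1. The share of all genes past a fold was not counted at 3-fold, with median centring or under the other alternatives, so these counts have no background. KIF20A lies at the threshold, at -0.99 for lysine-deprived over complete with cyclic loess and -0.99 without a floor. No paired analysis was possible because each condition had 1 array, and leaving out a replicate was not possible for the same reason. Near the floor, as for PLK1 and INCENP on the lysine-deprived array, differences depend on the floor: with it at the 60th percentile PLK1 was at -1.01 over complete and -1.35 over leucine-deprived, both bounds, and INCENP over leucine-deprived was at -0.34.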

Other observations

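Genes of the cyclin-dependent kinase inhibitors, of which 7 of 8 were measured, did not lie on one side of 0 after lysine removal: 3 were below 0 and 4 above, from -1.21 to 1.22 with a median of 0.64, where 49.5% of all genes were below 0. After leucine removal 1 was below 0 and 6 above, with a median of 0.66, where 48.3% of all genes were below 0. CDKN2D had signals of 175 lysine-deprived, 125 leucine-deprived and 75.3 in complete medium (1.22 and 0.73). CDKN2B had 95.7 and 116 on the deprived arrays and lay under the floor in complete medium, with bounds of 0.81 and 1.09. CDKN2A had 71.1 lysine-deprived, 281 leucine-deprived and 164 in complete medium (-1.21 and 0.77), the order of arrays seen for PLK1 and CKAP2L, while its other probe set was at -0.05 after lysine removal. All 3 genes have signals near the floor on at least 1 array.

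The 9 hybridization control probe sets, which read RNA added to every sample at the hybridization step, were higher on both deprived arrays. Their median was 1.46-fold higher on the lysine-deprived array and 1.54-fold higher on the leucine-deprived array than on the complete-medium array, and the lysine-deprived array differed from the leucine-deprived one by -0.02 on the log2 scale. Their part in the differences of the G2/M genes was not tested.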
